A study of Homo sapiens with 9 samples.

Results

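The genes described here are the long noncoding RNA (lncRNA) genes expressed in K562 cells, a human erythroleukaemia line. A gene was a member if its annotated type was lncRNA and its summed TPM (length- and depth-normalised abundance) averaged at least 5 over the 9 libraries, leaving out GAS5, ZFAS1 and every symbol beginning with SNHG. Of 15144 lncRNA genes in the tables, 480 reached 5 TPM, 23 of them were left out by symbol, and 457 were members, out of 58214 genes of all types. The members were thus chosen by their measured level, in all 3 groups together, and their levels are a description. Poly(A)-enriched RNA had been sequenced from cells harvested 4 days after a first siRNA transfection, which was repeated on day 3. There were 3 libraries for a nontargeting siRNA (SCR), 3 for siRNA against DHX34 (DHX34 knockdown) and 3 for siRNA against UPF1 (UPF1 knockdown). All 3 groups share the line, the transfection and the harvest day, and the study describes the replicates as biological. A knockdown lowers a transcript without removing it, and in bulk RNA a change in the share of cells that express a gene and a change in RNA per cell cannot be told apart.

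An lncRNA is transcribed and usually spliced and polyadenylated like an mRNA but has no annotated protein. Nonsense-mediated decay (NMD) is a translation-dependent pathway that degrades transcripts whose stop codon lies upstream of an exon junction, and UPF1 is its core RNA helicase. DHX34 is a further RNA helicase that acts in the pathway. Many lncRNAs reach the cytoplasm and carry short open reading frames, and hosts of small nucleolar RNAs (snoRNAs) are long-known NMD targets.

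To show which spliced RNAs were counted, the junction between the last pair of exons of the main transcript is printed for 5 members that the results below turn on, 30 bases each from GENCODE on GRCh38, with the first 15 bases of the last exon in capitals. CHASERR (chr15, plus strand) joins base 92892072 of exon 4 to base 92897724 of exon 5, CROCCP2 (chr1, minus strand) joins 16625775 of exon 12 to 16619103 of exon 13, LINC02610 (chr2, minus strand) joins 238231334 to 238227798, UCA1 (chr19, plus strand) joins 15835280 to 15835554, and LINC01033 (chr5, plus strand) joins 54322923 to 54401643.
CHASERR: tggtggaaacatttaCACCCAGTCAGCTTG
CROCCP2: gagcagctagcacagGCCTTGTCTCTGAAG
LINC02610: aaatcaacgattgagGGTCTGAGCACCTCC
UCA1: acctatgggaaaaggGTGTCCACGCAGTCC
LINC01033: tctgctgcaactaaaATCACTCATTCTGGG

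Library totals ran from 73478797 to 103625443 expected counts, and the members averaged from 23.3 to 210261 counts a library with a median of 750.1. The siRNAs lowered their targets. DHX34 fell from 73.7 ± 1.11 to 31.4 ± 2.32 CPM (depth-normalised counts; SD, n = 3), and UPF1 fell from 262 ± 8.13 to 106 ± 1.47 CPM. The 5 erythroid and K562 markers GATA1, TAL1, KLF1, HBG1 and TFRC were present in every library, with a summed level of 5887 to 6130 TPM in SCR, 5631 to 6224 after DHX34 knockdown and 4249 to 4546 after UPF1 knockdown. Of 8 markers of other cell types, MS4A1 was at 0 in every library and the summed level of all 8 was 70.7 to 88.7 TPM, nearly all of it from the epithelial gene EPCAM (68.1 to 80.4 TPM). Of these 8, by edgeR, COL1A1 changed by 2.78 (adjusted p = 2.3e-06) after DHX34 knockdown, from 0.223 to 0.970 TPM, and after UPF1 knockdown EPCAM changed by -0.26 (adjusted p = 4.2e-05) and PECAM1 by -0.59 (adjusted p = 0.00012). The part of these cell type markers in the changes of the members was not tested. Replicate 3 of the DHX34 knockdown stood apart: its counts differed from those of replicate 1 by a chi-square of 156 per degree of freedom and from those of replicate 2 by 71.7, against 5.19 to 19.2 for the pairs within SCR and UPF1 knockdown. ENSG00000280800 alone made up 56.8% and 49.2% of these values. Without it and ENSG00000283907 they were 22.1 and 20.4, against 4.34 to 10.9 for the other pairs of all groups.

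The abundance of the members was spread unevenly. The median member averaged 11.8 TPM, 191 members lay under 10 TPM, 249 between 10 and 100 and 17 at 100 or more. The members just inside the limit were ENSG00000226266 at 5.07 TPM and LINC00668 at 5.06 TPM, and the lncRNA genes just outside it were LINC00467 at 4.99 TPM and SCOC-AS1 at 4.98 TPM. ENSG00000280800, a single-exon gene at chr21:8210384-8211306 beside an annotated 5.8S ribosomal RNA gene, held 24.9% of the members' summed TPM. The part of ribosomal RNA reads in the counts of ENSG00000280800 was not tested. The level of this gene was 3267 ± 520.4 TPM in SCR, 5283 ± 1671 after DHX34 knockdown and 2869 ± 99.3 after UPF1 knockdown (SD, n = 3), and its 3 DHX34 knockdown libraries were 4476, 3456 and 2201 CPM. The next, ENSG00000283907 at chr19:35557928-35581960, had 1039 ± 91.9 TPM in SCR, 1548 ± 326 after DHX34 knockdown and 898 ± 57.3 after UPF1 knockdown (SD, n = 3). Both genes were lowest in replicate 3 among the DHX34 knockdown libraries.

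The other leading members were far lower and steadier. DANCR, a snoRNA host, had 324 ± 8.54 TPM in SCR, 317 ± 2.94 after DHX34 knockdown and 307 ± 7.42 after UPF1 knockdown (SD, n = 3). ENSG00000258232 shares 98% of its exon bases with TUBA1C on the other strand and had 309 ± 8.05 TPM in SCR, 267 ± 18.9 after DHX34 knockdown and 233 ± 9.90 after UPF1 knockdown (SD, n = 3). Since no source used here says that reads were assigned by strand, its reads and those of TUBA1C cannot be told apart. ENSG00000283633 averaged 269.5 TPM, LINC01610 263 TPM, ENSG00000279669 248 TPM and TMEM132D-AS1 232 TPM. Of the 8 leading members 5 are known by identifier only.

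Together the members made up 1.37% ± 0.07 of all TPM in SCR, 1.66% ± 0.17 after DHX34 knockdown and 1.56% ± 0.0066 after UPF1 knockdown (SD, n = 3). Both knockdowns lay above SCR without overlap (exact permutation test, two-sided, p = 0.1 for each, the smallest that 3 against 3 can give). Without ENSG00000280800 and ENSG00000283907 the shares were 0.936% ± 0.019, 0.974% ± 0.032 and 1.18% ± 0.011. UPF1 knockdown then lay above DHX34 knockdown, whereas over all members it lay below, by 0.1 percentage points (exact permutation p = 0.4). That last difference was -0.185 without DHX34 knockdown replicate 3 and -0.0157 without DHX34 knockdown replicate 1.

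UPF1 knockdown raised more lncRNA genes than it lowered. A gene was called changed at an edgeR adjusted p of at most 0.005, and log2 fold changes are on the count scale. Of the 457 members, all of them tested, 115 rose and 35 fell, where 12.4% of all genes tested were called up and 12.9% were called down. The UPF1 knockdown and SCR libraries did not overlap in 256 members, against 50.5% of all genes tested. The median log2 fold change of the members was 0.05 and that of all genes tested 0.02. The rule that chose the members used the UPF1 knockdown libraries too, so 40 members were under 5 TPM in SCR, and 19 of these rose and none fell. Among the 417 members of at least 5 TPM in SCR, 96 rose and 35 fell. Members are shorter than most genes (median 955 bases against 2069 for all genes tested), and across all genes tested the log2 fold change had a Spearman correlation of 0.15 with length, given as a description. The split moved with the scale. With the length trend taken out as an offset 146 members rose and 14 fell, and on log2(TPM + 0.5), where the median of all genes tested was 0.20, 145 rose and 3 fell.

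**Figure D1:**
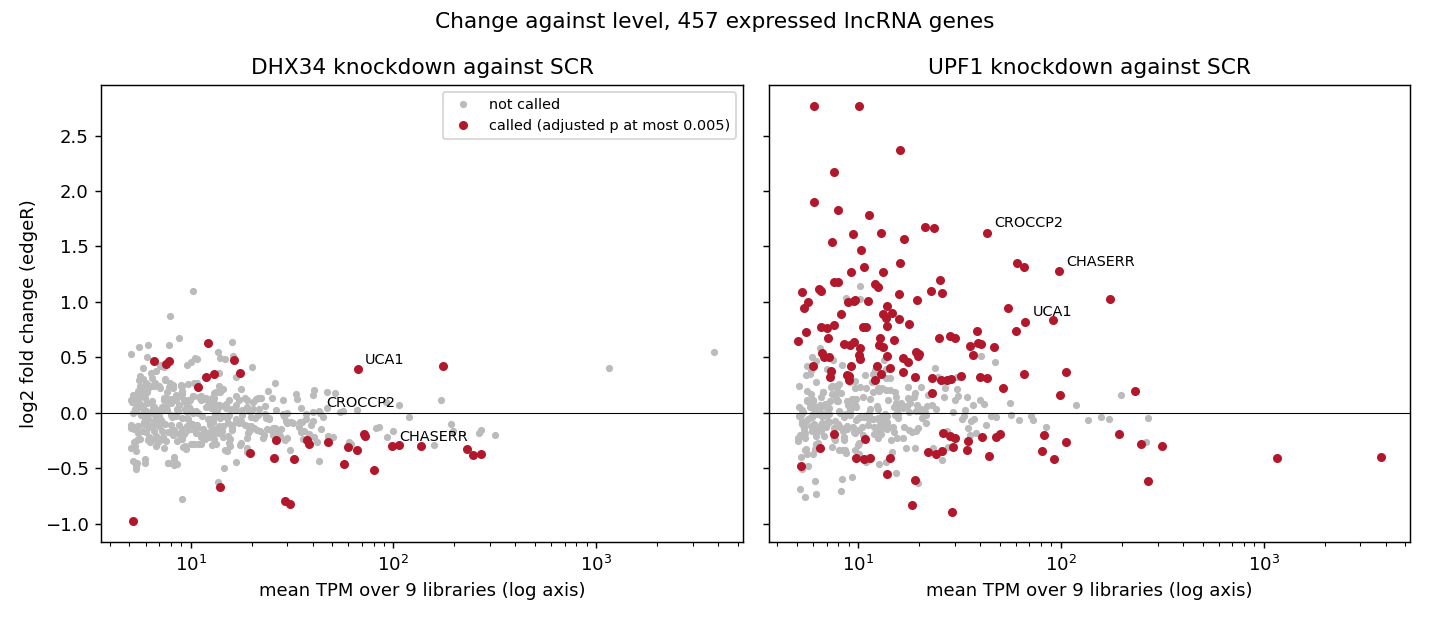
Log2 fold change from edgeR (y axis) against mean TPM over the 9 libraries (x axis, log) for the 457 members, DHX34 knockdown on the left and UPF1 knockdown on the right, with called members in red. Called rises reach 2.77 after UPF1 knockdown, and the called changes after DHX34 knockdown lie between -0.98 and 0.63.

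CHASERR, transcribed next to the chromatin remodeller gene CHD2 and known to limit its expression, was measured at 37.4, 38.1 and 39.01 CPM in the SCR libraries, 29.5, 31.6 and 31.96 CPM after DHX34 knockdown and 91.5, 93.7 and 93.8 CPM after UPF1 knockdown. The UPF1 knockdown libraries lay far above the others, and the DHX34 knockdown libraries lay below SCR, with no overlap between any of the groups. Its log2 fold change was 1.28 ± 0.03 (SE; adjusted p = 3.6e-10) after UPF1 knockdown. CROCCP2, an lncRNA gene at chr1:16618253-16644686 that overlaps a pseudogene of the ciliary rootlet gene CROCC, was measured at 46.2, 45.8 and 38.02 CPM in the SCR libraries, 42.1, 40.96 and 46.7 CPM after DHX34 knockdown and 135, 135 and 133 CPM after UPF1 knockdown. Its SCR and DHX34 knockdown libraries overlapped, and UPF1 knockdown raised it by 1.63 ± 0.06 (SE; adjusted p = 5.4e-09). Its main transcript aligned to CROCC at 92.99% identity over 885 bases, so reads shared with CROCC could be split between them. In both genes the 2 most abundant isoforms rose. The 5-exon CHASERR transcript rose by 1.17 (adjusted p = 0.00073) and the 2-exon one by 1.31 (adjusted p = 0.00058). The 13-exon CROCCP2 transcript rose by 1.76 (adjusted p = 0.00015) and the 4-exon one by 1.42 (adjusted p = 0.00088).

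**Figure D2:**
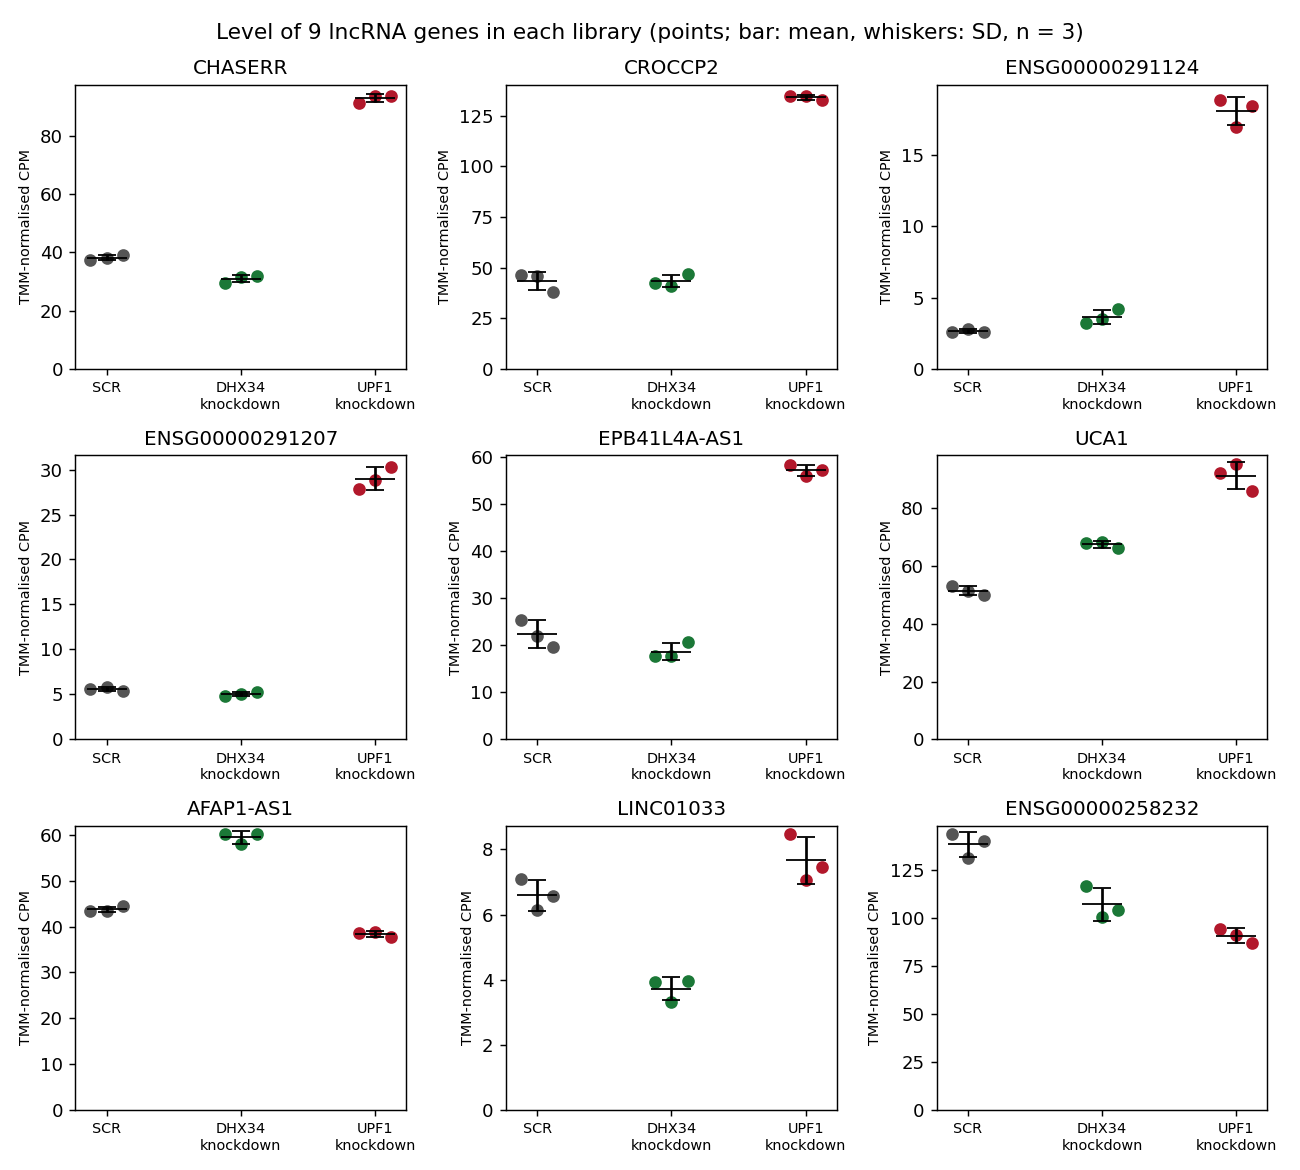
TMM-normalised CPM (y axis, from 0) of 9 members in each library, with points for libraries, the bar for the mean and whiskers for the SD of 3 replicates. CHASERR sits near 38 CPM in SCR and above 91 CPM in all UPF1 knockdown libraries, and AFAP1-AS1 and LINC01033 move after DHX34 knockdown.

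The 5 largest rises with separated groups were in ASNSP1, ENSG00000291124, ENSG00000291207, CCT6P3 and ENSG00000290845, and all 5 overlap an annotated pseudogene. ASNSP1, ENSG00000291124, CCT6P3 and ENSG00000290845 were under 5 TPM in both SCR and DHX34 knockdown and became members only through UPF1 knockdown, so their rises follow from the rule and are given as a description. ASNSP1, at chr8:46579213-46638886 and similar to the asparagine synthetase gene ASNS, was measured at 2.35, 1.93 and 2.07 CPM in the SCR libraries, 1.96, 1.88 and 1.78 CPM after DHX34 knockdown and 14.5, 15.3 and 13.7 CPM after UPF1 knockdown. It changed by 2.77 ± 0.09 (SE). ENSG00000291124, at chr7:65751037-65764225, holds SNORA22 and SNORA15B-2 and was measured at 2.59, 2.82 and 2.56 CPM in the SCR libraries, 3.25, 3.49 and 4.20 CPM after DHX34 knockdown and 18.9, 17.00 and 18.4 CPM after UPF1 knockdown. It rose by 2.77 ± 0.08 (SE). CCT6P3, at chr7:65038354-65074713, resembles the chaperonin subunit gene CCT6A as ENSG00000291124 does, and holds SNORA22C and SNORA15B-1. Its rise was 2.17 ± 0.07 (SE). ENSG00000291207, similar to SEPTIN7 over 278 bases, rose by 2.37 ± 0.06 (SE; adjusted p = 3.6e-10), and ENSG00000290845, similar to HERC2, changed by 1.90 ± 0.11 (SE). Counts of such genes are uncertain where near-identical copies share reads. Separation from the SCR libraries was a condition for naming these 5, so it is no further result. In each of them the UPF1 knockdown libraries also lay above those of DHX34 knockdown.

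Members without pseudogene overlap rose as well. LINC02610, at chr2:238224552-238231711, whose most abundant transcript has 2 exons and is annotated as a retained intron, was measured at 3.04, 3.95 and 3.61 CPM in the SCR libraries, 2.84, 2.49 and 3.74 CPM after DHX34 knockdown and 12.03, 12.5 and 12.1 CPM after UPF1 knockdown, with no overlap between UPF1 knockdown and the rest, and rose by 1.78 ± 0.10 (SE; adjusted p = 8.2e-08). EPB41L4A-AS1, a snoRNA host for SNORA13, was measured at 25.4, 22.05 and 19.7 CPM in the SCR libraries, 17.6, 17.7 and 20.7 CPM after DHX34 knockdown and 58.3, 56.1 and 57.3 CPM after UPF1 knockdown and rose by 1.35 ± 0.07 (SE; adjusted p = 9.4e-08). It shares 51% of its exon bases with genes on the other strand.

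The largest falls after UPF1 knockdown were smaller than the largest rises. ENSG00000274719, a single-exon gene at chr15:57990217-57990636, was measured at 6.93, 6.16 and 6.76 CPM in the SCR libraries, 3.64, 4.45 and 3.34 CPM after DHX34 knockdown and 3.51, 3.82 and 3.35 CPM after UPF1 knockdown, and both knockdowns lay below SCR without overlap. It fell by 0.90 ± 0.10 (SE; adjusted p = 2.2e-05) after UPF1 knockdown. ENSG00000290652, which overlaps the delta-globin gene HBD and the pseudogene HBBP1 at chr11:5241105-5243533, was measured at 22.9, 19.6 and 22.1 CPM in the SCR libraries, 22.3, 25.1 and 23.5 CPM after DHX34 knockdown and 12.2, 11.8 and 12.4 CPM after UPF1 knockdown and changed by -0.84 ± 0.06 (SE; adjusted p = 1.2e-06). In the same libraries the erythroid genes HBG1, KLF1 and GATA1 changed by -0.74, -0.40 and -0.29, all called by edgeR, TFRC rose by 0.40 and TAL1 was at -0.06 without passing. The part of erythroid genes in this fall was not tested. ENSG00000258232, antisense to TUBA1C, changed by -0.62 ± 0.04 (SE; adjusted p = 4.4e-07), ENSG00000233461 by -0.61 ± 0.12 (SE; adjusted p = 0.0013) and DGUOK-AS1 by -0.55 ± 0.12 (SE; adjusted p = 0.0029). The last 2 calls were lost with length-scaled counts, on the TPM scale and with the length offset, and that of DGUOK-AS1 also in 5 of the 6 fits without a library.

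The rises after UPF1 knockdown were spread by structure as follows. For comparison, 12.4% of all genes tested were called up and 12.9% down. Of 57 members whose main transcript had 1 exon, 5 rose and 5 fell (median log2 fold change -0.04). Of 236 with 2 to 3 exons, 41 rose and 23 fell (-0.01). Of 164 with 4 or more, 69 rose and 7 fell (0.22). Of the 95 members annotated as overlapping a pseudogene, 57 rose and 2 fell (0.52), and of the other 362, 58 rose and 33 fell (-0.02). The features go together: 66 of the 95 had 4 or more exons, and among these 43 rose, while of the 98 members with 4 or more exons and no pseudogene overlap 26 rose and 6 fell. Among the 191 members whose main transcript shared no stretch of 150 bases at 95% identity with another gene, 26 rose and 18 fell. The share that rose, 13.6%, was near that of all genes tested. Of these 191, 1 of 31 with 1 exon rose and 4 fell (median -0.15). With 2 to 3 exons 16 of 112 rose and 13 fell (-0.03), and with 4 or more 9 of 48 rose and 1 fell (0.03). Of the 93 members with an exon junction at least 50 bases past the stop codon of their longest open reading frame, 44 rose and 4 fell, and of the 306 spliced members without one, 66 rose and 26 fell. After DHX34 knockdown none of the 95 pseudogene-overlapping members rose and 2 fell, where 5.54% of all genes tested were called up and 4.86% down. Over all 457 members 11 rose and 23 fell after DHX34 knockdown, so few calls were made in any class.

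These class counts include the 40 members under 5 TPM in SCR, of which 13 overlap a pseudogene. Among members of at least 5 TPM in SCR, 4 of 52 rose and 5 fell with 1 exon, 36 of 220 rose and 23 fell with 2 to 3 exons and 56 of 145 rose and 7 fell with 4 or more. Of these 145, 88 did not overlap a pseudogene, and 21 of the 88 rose and 6 fell (median 0.01). Of the 57 that overlap a pseudogene 35 rose and 1 fell (0.52). Of all members of at least 5 TPM in SCR that overlap a pseudogene 46 of 82 rose and 2 fell (median 0.39), and of the others 50 of 335 rose and 33 fell (-0.03). The shares that rose were 56.1% and 14.9%, where 12.4% of all genes tested were called up and 12.9% down. With a junction past the longest open reading frame 37 of 83 rose and 4 fell, and of spliced members without one 55 of 281 rose and 26 fell.

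**Figure D3:**
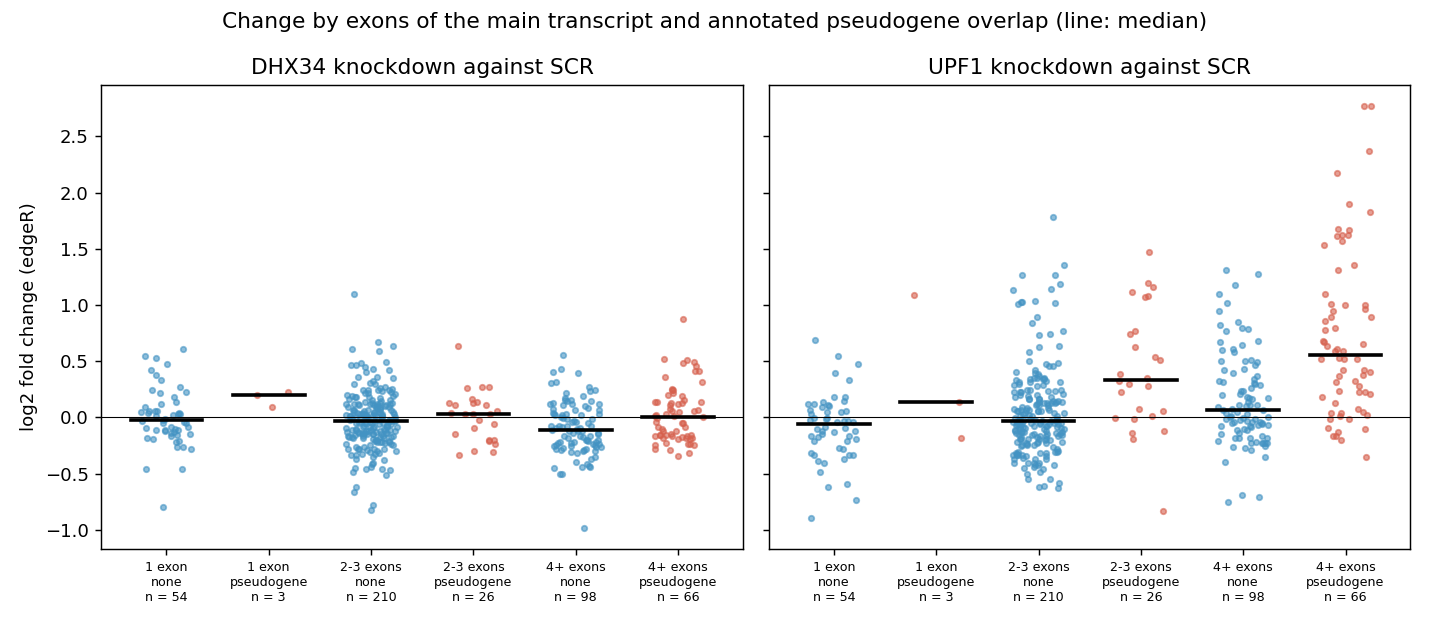
Log2 fold change (y axis) of the 457 members by exon number of the main transcript and annotated pseudogene overlap (red) or none (blue), DHX34 knockdown on the left and UPF1 knockdown on the right, with black lines for medians. The 66 members with 4 or more exons and pseudogene overlap have a median of 0.56 after UPF1 knockdown and 0.01 after DHX34 knockdown, and the 57 of these with at least 5 TPM in SCR have 0.52 after UPF1 knockdown.

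The members also fall into classes by name. Of 40 divergent genes (symbols ending in -DT), which start next to a coding gene in the opposite direction, 2 rose and 3 fell after UPF1 knockdown and none was called after DHX34 knockdown. UBA6-DT rose by 0.89 ± 0.06 (SE; adjusted p = 8.1e-07) and also holds SNORA62. Of 93 antisense genes 15 rose and 9 fell after UPF1 knockdown, of 64 LINC genes 12 rose and 5 fell, and of 165 genes known by identifier only 48 rose and 11 fell. The shares that rose were 16.1%, 18.8% and 29.1%. Of all genes tested, 12.4% were called up and 12.9% down after UPF1 knockdown, and 5.54% and 4.86% after DHX34 knockdown. The name classes were not counted again without the 40 members under 5 TPM in SCR. Among the 8 members with an annotated snoRNA inside, EPB41L4A-AS1, UBA6-DT, ENSG00000291124 and CCT6P3 rose, DANCR fell by 0.30 ± 0.03 (SE; adjusted p = 1.6e-05), and LINC00888, TMEM161B-DT and GPRC5D-AS1 did not pass the test. The DANCR call was lost on the TPM scale. ENSG00000291124 and CCT6P3 passed 5 TPM only through UPF1 knockdown, so their rises follow from the rule.

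DHX34 knockdown changed fewer lncRNA genes. Of the 457 members 11 rose and 23 fell, where 5.54% of all genes tested were called up and 4.86% down. The libraries did not overlap in 175 members, against 41.4% of all genes tested, and the median log2 fold change of the members was -0.04 against 0.02 over all genes. The split turned with the scale: 16 rose and 7 fell with the length trend as an offset, and 11 rose and 2 fell on log2(TPM + 0.5), where the median of all genes tested was 0.16. Leaving out a library also moved the count, to 15, 20 and 15 without SCR replicates 1, 2 and 3 and to 18 and 18 without DHX34 knockdown replicates 1 and 2, while it was 36 without DHX34 knockdown replicate 3, the library that stood apart.

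AFAP1-AS1, antisense to the actin filament gene AFAP1, was measured at 43.5, 43.4 and 44.4 CPM in the SCR libraries, 60.2, 57.9 and 60.3 CPM after DHX34 knockdown and 38.7, 38.9 and 37.7 CPM after UPF1 knockdown. The 3 groups did not overlap, with DHX34 knockdown highest and UPF1 knockdown lowest in CPM, although the UPF1 knockdown change of -0.19 turned to 0.013 on the TPM scale and lost its call in 3 of the 6 fits without a library. Its log2 fold change of 0.44 ± 0.04 (SE; adjusted p = 3.1e-05) after DHX34 knockdown passed under every alternative fit. The other rises named by size were ENSG00000255026 (0.63 ± 0.12), NUP153-AS1 (0.47 ± 0.08), GJD3-AS1 (0.47 ± 0.07) and CARD8-AS1 (0.47 ± 0.08), and each of these 4 calls was lost without at least 4 of the 6 libraries in turn. All exon bases of GJD3-AS1 are shared with genes on the other strand.

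Among the falls, LINC01033, at chr5:54313564-54415238, whose most abundant transcript has 2 exons, was measured at 7.08, 6.13 and 6.58 CPM in the SCR libraries, 3.92, 3.31 and 3.95 CPM after DHX34 knockdown and 8.47, 7.06 and 7.47 CPM after UPF1 knockdown. DHX34 knockdown lay below both other groups without overlap, and the change was -0.82 ± 0.11 (SE; adjusted p = 0.00043). ENSG00000232884, at chr21:14676689-14763259, was measured at 11.2, 11.97 and 12.4 CPM in the SCR libraries, 7.05, 7.61 and 7.70 CPM after DHX34 knockdown and 11.2, 11.05 and 10.99 CPM after UPF1 knockdown and changed by -0.67 ± 0.08 (SE; adjusted p = 0.00017). Both falls passed without any 1 library and were lost on the TPM scale. OR2A1-AS1, which was above 5 TPM in SCR alone, had the lowest value, -0.98 ± 0.16 (SE), and lost its call in 5 of the 6 fits without a library. ENSG00000274719 changed by -0.80 ± 0.12 (SE; adjusted p = 0.001) and ENSG00000227681 by -0.52 ± 0.08 (SE; adjusted p = 0.0007). Both calls were lost with length-scaled counts and on the TPM scale, the first also in 3 of the 6 fits without a library and the second with the length offset. CHASERR changed by -0.30 ± 0.05 (SE; adjusted p = 0.00096), a call lost with length-scaled counts, on the TPM scale, with the length offset and in 4 of the 6 fits without a library.

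Set directly against DHX34 knockdown, UPF1 knockdown raised 113 members and lowered 18, where 9.89% of all genes tested were called up and 7.47% down. The libraries did not overlap in 259 members, against 45.9% of all genes tested. The rule again bears on the count: 18 members were under 5 TPM after DHX34 knockdown, of which 9 rose and none fell, and among the 439 others 23.7% rose and 18 members fell. The 131 calls became 110, 111 and 153 without DHX34 knockdown replicates 1, 2 and 3 and 98, 96 and 103 without those of UPF1 knockdown. This comparison shares its UPF1 knockdown and its DHX34 knockdown libraries with the comparisons against SCR. CHASERR was higher by 1.60 ± 0.04 (SE; adjusted p = 2e-09), CROCCP2 by 1.64 ± 0.05 (SE; adjusted p = 4.1e-09) and LINC02610 by 2.02 ± 0.13 (SE; adjusted p = 8e-07). ASNSP1, ENSG00000291207, ENSG00000291124 and CCT6P3 completed the 5 largest rises with LINC02610, at 2.96 ± 0.08, 2.54 ± 0.06, 2.32 ± 0.10 and 2.00 ± 0.08, and of these 5 ASNSP1, ENSG00000291124 and CCT6P3 are the ones that passed 5 TPM only through UPF1 knockdown. The largest called falls with separated libraries were in ENSG00000290652 (-0.95 ± 0.06), LINC01554 (-0.95 ± 0.14), ENSG00000280800 (-0.93 ± 0.18), ENSG00000283907 (-0.79 ± 0.13) and ENSG00000263551 (-0.67 ± 0.12). Without these 2 conditions the lowest value of any member was -1.33. LINC01554 was measured at 2.70, 2.40 and 3.23 CPM in the SCR libraries, 4.50, 4.16 and 3.89 CPM after DHX34 knockdown and 2.47, 1.82 and 2.18 CPM after UPF1 knockdown. Its UPF1 and DHX34 knockdown libraries did not overlap, and it was above 5 TPM after DHX34 knockdown alone, so this fall follows in part from the rule. The call of ENSG00000280800 was lost in 5 of the 6 fits without a library, that of ENSG00000263551 in 4 and that of ENSG00000283907 in 2 and on the TPM scale.

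Of the lncRNAs with studied roles, the nuclear RNAs come first. NEAT1 and MALAT1, neighbouring nuclear RNAs on chromosome 11, were the members among 5 lncRNAs listed together. NEAT1, the scaffold of paraspeckles, was measured at 99.6, 91.2 and 64.2 CPM in the SCR libraries, 61.9, 57.2 and 104.1 CPM after DHX34 knockdown and 150.4, 143 and 133 CPM after UPF1 knockdown. UPF1 knockdown lay above both other groups without overlap and NEAT1 rose by 0.74 ± 0.12 (SE; adjusted p = 0.00035), while DHX34 knockdown replicate 3 was well above replicates 1 and 2. MALAT1 had log2 fold changes of -0.03 ± 0.08 (SE; adjusted p = 0.79) after UPF1 knockdown and -0.04 ± 0.11 (SE; adjusted p = 0.83) after DHX34 knockdown. H19, listed with them, missed the limit at 4.86 TPM.

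Of 14 widely expressed lncRNAs 11 were members. After UPF1 knockdown EPB41L4A-AS1, THAP9-AS1, JPX and FGD5-AS1 rose and DANCR, PVT1 and CYTOR fell, and after DHX34 knockdown NORAD, OIP5-AS1 and PVT1 fell and none rose. The shares over all genes tested were 12.4% up and 12.9% down after UPF1 knockdown, and 5.54% and 4.86% after DHX34 knockdown. With 11 members these counts are a description. THAP9-AS1 was measured at 33.3, 35.1 and 32.9 CPM in the SCR libraries, 30.6, 31.2 and 33.8 CPM after DHX34 knockdown and 52.2, 50.1 and 51.7 CPM after UPF1 knockdown and rose by 0.60 ± 0.04 (SE; adjusted p = 6.2e-07). JPX, an activator of X-inactivation, rose by 0.29 ± 0.06 (SE; adjusted p = 0.0017) and FGD5-AS1 by 0.23 ± 0.03 (SE; adjusted p = 7.9e-05). NORAD, which binds PUMILIO proteins, changed by -0.19 ± 0.04 (SE; adjusted p = 0.0046) after DHX34 knockdown, OIP5-AS1 by -0.21 ± 0.04 (SE; adjusted p = 0.0016) and PVT1 by -0.29 ± 0.04 (SE; adjusted p = 0.00089). The calls of NORAD and OIP5-AS1 were lost in 5 and 4 of the 6 fits without a library, and that of JPX in 4. NORAD and OIP5-AS1 also lost their calls with length-scaled counts, on the TPM scale and with the replicate number as a block. The NORAD call was lost with the GC-content trend as an offset too, and that of JPX with length-scaled counts. PVT1 lost both calls with length-scaled counts, on the TPM scale and with the length offset, and the DHX34 knockdown call also without SCR replicates 1 and 3. CYTOR lost its call on the TPM scale and without SCR replicate 1 or UPF1 knockdown replicate 2, and turned to 0.0021 with the length offset. DANCR lost its call on the TPM scale. TUG1 was at 29.9 TPM but is annotated as coding in the release used and was no member.

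Among 8 lncRNAs known from blood cells, CCDC26, UCA1 and MIR223HG were members. UCA1 was measured at 53.1, 51.3 and 49.99 CPM in the SCR libraries, 68.1, 68.5 and 66.2 CPM after DHX34 knockdown and 92.3, 95.4 and 86.2 CPM after UPF1 knockdown, so that the 3 groups did not overlap and UPF1 knockdown was highest. Its log2 fold change was 0.39 ± 0.04 (SE; adjusted p = 0.0001) after DHX34 knockdown and 0.82 ± 0.04 (SE; adjusted p = 7.4e-08) after UPF1 knockdown, and every alternative fit called both. CCDC26 changed by -0.26 ± 0.04 (SE; adjusted p = 0.0013) after DHX34 knockdown and -0.22 ± 0.04 (SE; adjusted p = 0.00053) after UPF1 knockdown, and on the TPM scale its UPF1 value turned positive. Both calls were lost with length-scaled counts and with the length offset, the UPF1 call also without UPF1 knockdown replicate 2. The DHX34 call was also lost on the TPM scale, with the replicate number as a block and in 3 of the 6 fits without a library. Of 83 listed microRNA host genes 9 were members, and among them 1 fell and none rose in each knockdown, PVT1 in both. The shares over all genes tested were 12.4% up and 12.9% down after UPF1 knockdown, and 5.54% and 4.86% after DHX34 knockdown. MIR17HG, host of the miR-17 cluster, was measured at 11.6, 12.4 and 9.05 CPM in the SCR libraries, 14.1, 12.8 and 21.3 CPM after DHX34 knockdown and 15.1, 12.7 and 15.6 CPM after UPF1 knockdown. Its DHX34 knockdown replicate 3 was the highest library, and the change of 0.55 ± 0.17 (SE; adjusted p = 0.035) after DHX34 knockdown did not pass.

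The coding genes that members are named after were compared with them. For 131 members the coding gene named in the symbol was measured, and 122 of these coding genes were tested for UPF1 knockdown. There, 17 coding genes rose and 20 fell (against 12.4% and 12.9% of all genes tested), and in 6 pairs both genes were called, 2 of them in the same direction. PCBP1-AS1 rose by 0.84 ± 0.06 (SE; adjusted p = 8.2e-07) while PCBP1, a poly(C)-binding protein gene, changed by -0.31 ± 0.03 (SE; adjusted p = 3.6e-06). EMSY-DT changed by -0.41 ± 0.09 (SE; adjusted p = 0.0028) and EMSY by 0.47 ± 0.07 (SE; adjusted p = 0.00022). KRT10-AS1 and KRT10 both fell, as did BOLA3-DT and BOLA3, at -0.41 ± 0.06 for the lncRNA and -0.40 ± 0.05 (SE; adjusted p = 5.5e-05) for BOLA3. After DHX34 knockdown 6 of 123 tested coding genes rose and 10 fell, against 5.54% and 4.86% of all genes tested, and in no pair were both called. Directly between the knockdowns 15 of 122 rose and 9 fell, against 9.89% and 7.47%, and in 7 pairs both genes were called, 6 of them in the same direction. CHD2, picked after its values were seen because it neighbours CHASERR, changed by 0.29 ± 0.04 (SE; adjusted p = 0.00012) after UPF1 knockdown and 0.20 ± 0.07 (SE; adjusted p = 0.047) after DHX34 knockdown.

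**Figure D4:**
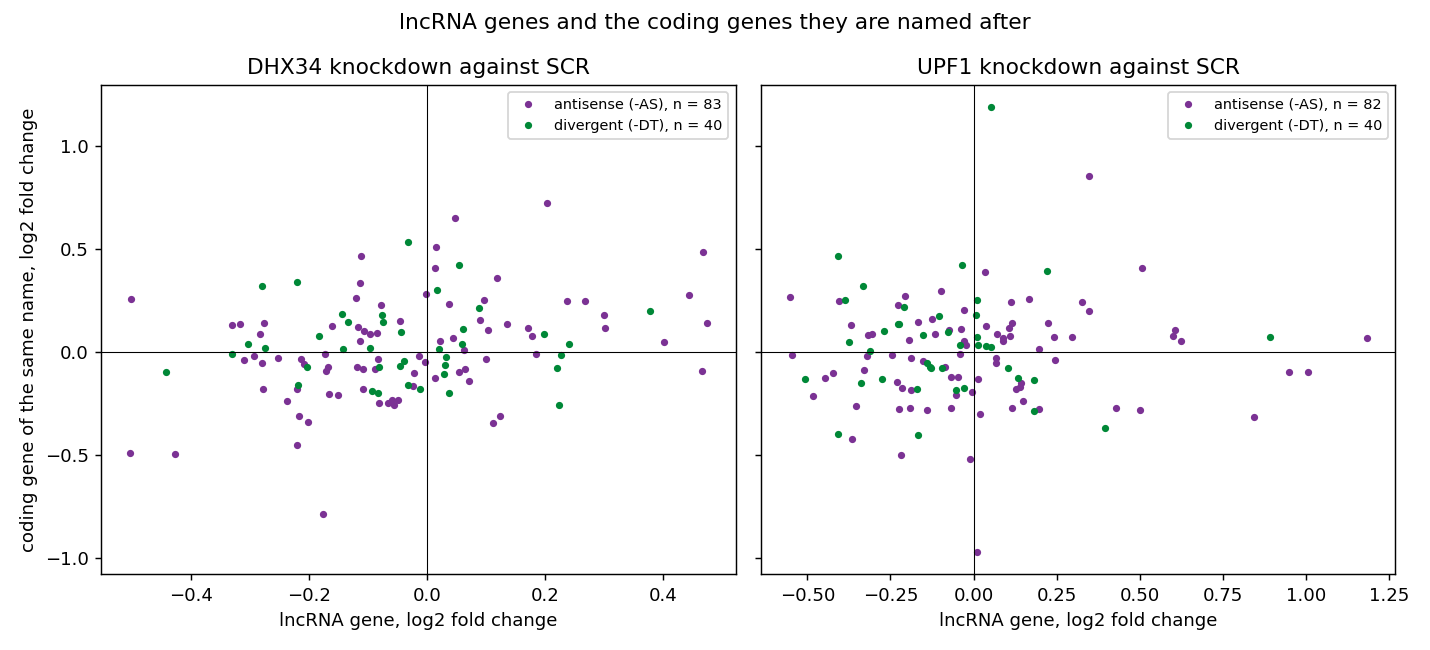
Log2 fold change of lncRNA genes (x axis) and of the coding genes in their names (y axis), for antisense (purple) and divergent (green) names, DHX34 knockdown on the left and UPF1 knockdown on the right. Of 122 pairs tested for UPF1 knockdown, both genes were called in 6.

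Single transcripts gave fewer calls than whole genes. After UPF1 knockdown 66 of 1583 tested transcripts of members rose and 7 fell, in 52 genes, where 0.97% of all transcripts tested were called up and 1.62% down. After DHX34 knockdown edgeR called none of 1536, where 0.0348% of all transcripts were called up and 0.0116% down, with 173 of the members' transcripts at an unadjusted p under 0.05, and DESeq2 called 30. Against DHX34 knockdown, UPF1 knockdown raised 51 of 1600 and lowered 3, where 0.732% and 0.32% of all transcripts were called. Leaving out any 1 of the 6 libraries moved both UPF1 counts by over 1.5 times, and the count against SCR was then 4 to 32 and that against DHX34 knockdown 4 to 34.

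**Figure D5:**
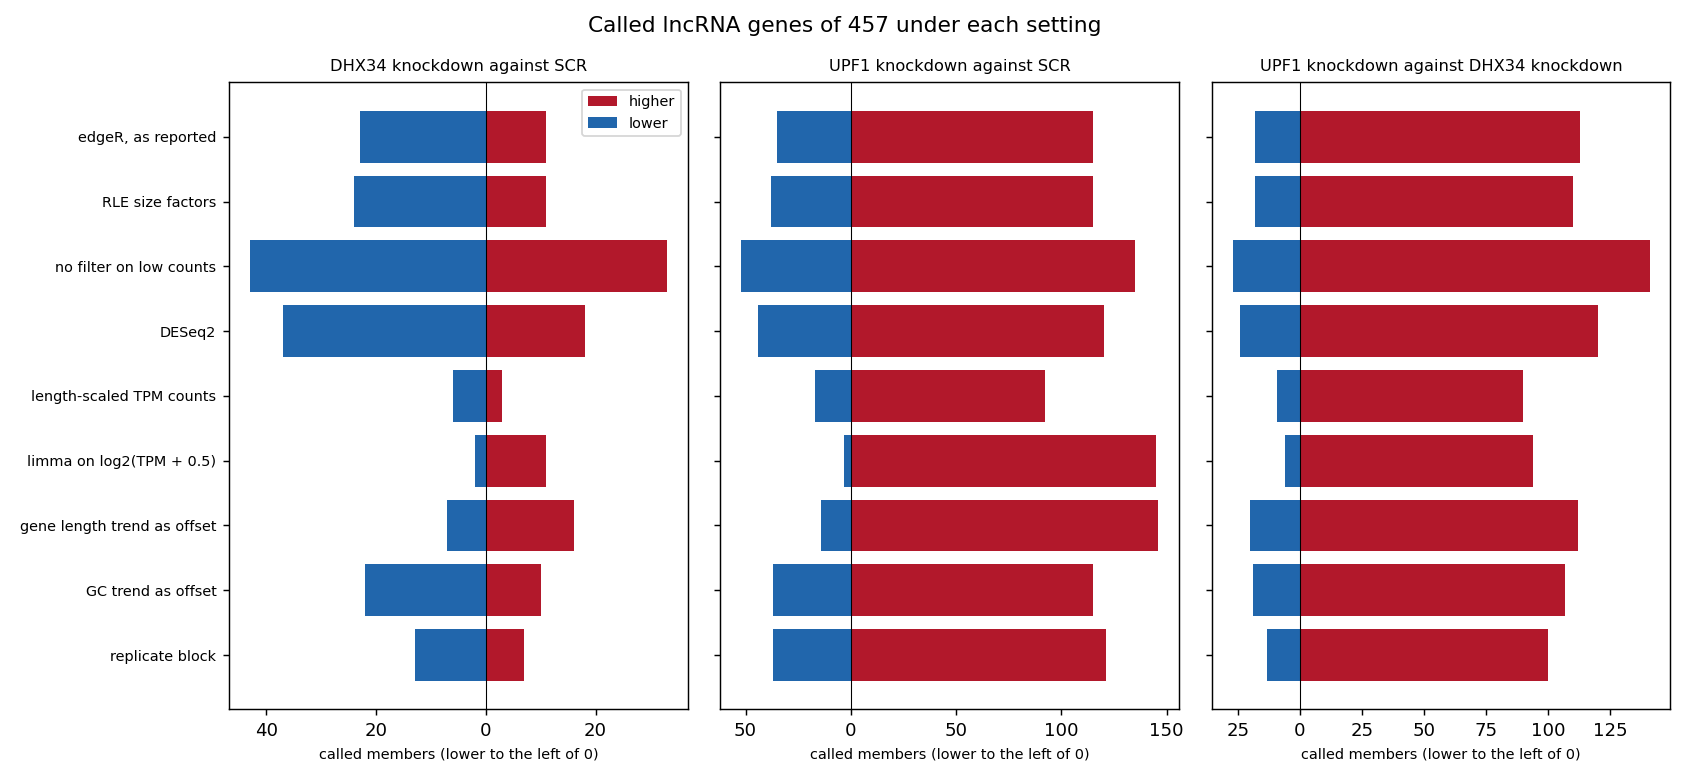
Called members of 457 (x axis, higher to the right of 0 and lower to the left) under each way of fitting (y axis) for the 3 comparisons. Higher outnumber lower in every fit of both UPF1 comparisons, and the direction of the DHX34 split turns with the length offset and on the TPM scale.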

How the data were processed

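RNA was measured in 9 K562 libraries, 3 a group by title. The authors quantified reads with salmon against Ensembl transcripts on GRCh38, and each deposited table gives estimated counts, TPM and effective length for 203027 transcripts. The authors' deposited sleuth and SUPPA2 result tables were not used. Whether salmon used strand is not given in the sources used here. Gene types, symbols and coordinates come from GENCODE release 44, matched on transcript identifiers (97.9% of transcripts, 98.1% of counts), and counts and TPM were summed per gene. Expected counts were rounded. Levels are TPM or TMM-normalised CPM over all 9 libraries, and an interval or SE covers the spread between libraries only.

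Genes and transcripts were tested with edgeR 4.0.16 (R 4.3.3) by quasi-likelihood fits with TMM and filterByExpr (minimum count 10) on the 6 libraries of each comparison, with Benjamini-Hochberg adjustment over all features tested and a limit of 0.005. SE is the log2 fold change over the root of F. DESeq2 1.42.0 and limma 3.58.1 on log2(TPM + 0.5) were alternatives, likeness to other genes came from BLAST 2.17.0, and pooled shares were compared by exact permutation tests. On data simulated for UPF1 knockdown against SCR (17184 genes), 91.7% of genes with a log2 change of 1 and 200 to 1000 counts were called, 100% over 1000 counts, 35.7% at 50 to 200 and 0% under 50, and with a log2 change of 0.5 the shares were 21.7% at 200 to 1000, 100% over 1000 and 0% below. Of 200 changed genes 113 were called, with 4 false calls. In the data, 12.4% of all genes tested were called up and 12.9% down, so far more genes changed than in the simulation. The adjustment was therefore stricter in the simulation, and its shares do not measure recovery in the data.

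The members, lists and classes were chosen with earlier results of these data known. Named genes are CHASERR, CROCCP2, the 8 highest in TPM, the 5 largest called rises and falls with separated libraries in each comparison, the listed lncRNAs, and the genes nearest the 5 TPM limit. SDs are over 3 libraries. A further marker on the list is not reported here. Others named (members of small counts, partners and snoRNA hosts) were picked after their values were seen.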

Additional observations from a re-analysis of the deposited data

How the results depend on the processing

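Rises outnumbered falls after UPF1 knockdown, against either group, under every alternative fit. For DHX34 knockdown, 34 calls became 76 with no filter on low counts, 55 with DESeq2, 9 with length-scaled counts, 13 with limma on log2(TPM + 0.5) and 98 at an adjusted p of 0.05, where the direct comparison gave 198. The members' median turned to 0.12 on the TPM scale and 0.063 with the length offset, and for UPF1 knockdown it was 0.015 with length-scaled counts, 0.22 on the TPM scale and 0.17 with the length offset. The cause was not tested.

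Replicate numbers did not pair the samples (same-numbered correlations from -0.20 to 0.19). With the replicate number as a block there were 20, 158 and 113 calls for DHX34 knockdown, UPF1 knockdown and the direct comparison, against 34, 150 and 131 without it.

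Other limits on membership changed how many genes could be called. At 1 TPM, UPF1 knockdown gave 256 calls and the direct comparison 210, and the DHX34 median was 0.015. At 10 TPM the medians were -0.082 for DHX34 knockdown and 0.16 directly, and with 5 TPM in SCR alone the UPF1 median was 0.020. Members with under 10% exon overlap gave 70 calls and a median of 0.012 for UPF1 knockdown, and 59 and 0.082 directly. Chosen after seeing the data, members like no other transcript gave 16 calls for DHX34 knockdown, 44 with a median of -0.027 for UPF1 knockdown and 43 with 0.027 directly, and members with no pseudogene overlap gave 91 with -0.019 and 81 with 0.058.

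Without 1 library, DHX34 calls ranged from 15 to 36 with medians of -0.061 to -0.015, and transcript calls from 4 to 32 for UPF1 knockdown and 4 to 34 directly. DESeq2, also added after seeing the data, called 30, 204 and 188 transcripts. Without the 2 highest members the TPM share of UPF1 knockdown was above that of DHX34 knockdown by 0.206 percentage points, and among members with under 10% exon overlap UPF1 knockdown exceeded SCR by 0.0635 (exact permutation p = 0.4). On the TPM scale the UPF1 knockdown values of AFAP1-AS1 and CCDC26 turned to 0.013 and 0.020, that of CYTOR to 0.0021 with the length offset and that of TMEM132D-AS1 to -0.0081 with length-scaled counts. Genes under 50 counts a library were not called in the simulated data at a log2 change of 1, where far fewer genes changed than in the data.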
